A study of Mus musculus with 24 samples.

Results

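The Lif-Stat3 pathway and reactive glia were followed through 10 genes in mouse retinas after hypoxic preconditioning, which are the ligand gene Lif, the receptor genes Osmr and Il6st, the transcription factor genes Stat3 and Cebpd, the inhibitor gene Socs3, and Gfap, Lcn2, Edn2 and Fgf2, whose products are found in stressed glia and photoreceptors. All probe sets to which the array annotation gives one of these symbols alone were taken, which gave 24 of the 45037 probe sets analysed and 10 of 18193 genes. The study asked which retinal genes respond to a hypoxic preconditioning that protects photoreceptors from light damage for a limited time. BALB/c mice, whose age is not given in the sources used here, were kept for 6 h at 6% oxygen, and retinas were taken 0, 2, 4 or 16 h after the return to room air in darkness. Retinas of normoxic BALB/c mice were taken in parallel at the same times. Each of the 24 arrays held RNA of 1 pool of 3 retinas from 3 mice, with 3 arrays for each of 8 groups. A pool of whole retinas holds many cell types, so that more RNA per cell and more cells of a type cannot be told apart in any value below.

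Lif and other cytokines of the interleukin-6 family bind a ligand-specific receptor subunit, such as the oncostatin M receptor Osmr, together with the shared subunit gp130, the product of Il6st. Janus kinases bound to the receptor then phosphorylate Stat3, which enters the nucleus and raises the expression of target genes. One target is Socs3, which inhibits the same receptor, and another is Cebpd, a transcription factor of the acute phase response. In the injured retina, photoreceptors express Edn2 and Müller glia express Lif, Gfap and Fgf2, and signaling through gp130 supports the survival of photoreceptors. Gfap, the intermediate filament of astrocytes, and Lcn2, a lipocalin that binds iron-carrying siderophores, are markers of reactive glia.

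Reference promoter sequence was available for 9 of the 10 genes, all but Cebpd, and was searched for binding motifs of the transcription factors named above, since Lcn2, Cebpd and Stat3 carry the findings below. The 250 bases before the start of transcription were taken from RefSeq (build GRCm38.p6). The Stat motif TTCNNNGAA, which is the same on both strands, was found in 7.02% of 32851 promoters. The C/EBP motif TTGCNNAA, searched on both strands, was found in 9.56%, and the motif of the hypoxia-inducible factors, ACGTG or GCGTG on either strand, in 38.6%. Below, Stat and C/EBP motifs are in capitals.
Lcn2 (chr2:32387740-32387989, minus strand): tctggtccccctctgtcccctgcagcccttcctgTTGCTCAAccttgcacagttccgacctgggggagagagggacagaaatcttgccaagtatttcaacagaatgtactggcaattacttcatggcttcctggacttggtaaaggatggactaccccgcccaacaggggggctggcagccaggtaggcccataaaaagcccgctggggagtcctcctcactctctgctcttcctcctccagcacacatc
Stat3 (chr11:100939541-100939790, minus strand): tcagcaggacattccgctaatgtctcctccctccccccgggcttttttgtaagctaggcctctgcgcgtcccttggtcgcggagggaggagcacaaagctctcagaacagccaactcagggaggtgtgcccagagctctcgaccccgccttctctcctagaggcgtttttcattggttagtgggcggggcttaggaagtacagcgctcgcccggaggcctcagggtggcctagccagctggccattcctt
Socs3 (chr11:117969367-117969616, minus strand): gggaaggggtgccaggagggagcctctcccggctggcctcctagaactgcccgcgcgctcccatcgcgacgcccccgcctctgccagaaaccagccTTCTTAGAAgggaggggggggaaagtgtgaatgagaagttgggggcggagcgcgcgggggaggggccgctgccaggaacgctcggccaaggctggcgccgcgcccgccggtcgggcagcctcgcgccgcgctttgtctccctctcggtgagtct
Among the 9 promoters, Socs3 alone held the Stat motif, as TTCTTAGAA with its first base 154 bases before the start. Lcn2 alone held the C/EBP motif, as TTGCTCAA with its first base 216 bases before the start. The Stat3 window held none of these motifs, and the motif of the hypoxia-inducible factors was found once each in Lif, Edn2 and Fgf2. These are matches of letters in a short window and are not measured binding sites.

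Tests were made at those times at which the mean log2 signal of a probe set reached 6.69 in hypoxic or in normoxic retinas, the minimum between the peaks of the distribution of all values. At this threshold 9, 10, 12 and 7 of the 24 probe sets were tested at 0, 2, 4 and 16 h. Immediately after hypoxia 4 of 9 were higher in hypoxic retinas (limma, adjusted p under 0.05 over all probe sets tested), which were those of Lcn2 and Cebpd and 2 probe sets of Stat3. Across the array 15.2% of probe sets were higher at 0 h. At 2 h 3 of 10 were higher, for Lcn2, Cebpd and Stat3, against 9.19% of all probe sets. At 4 h 2 of 12 were higher, for Lcn2 and Stat3, against 0.876% of all probe sets. At 16 h the count was 0 of 7 by limma and by the methods' t-test, with 1 at an unadjusted p under 0.05, and 0% of all probe sets were higher. None of the 24 probe sets was called lower at any time point. Across the array 3242 of 18799, 1372 of 18587 and 102 of 18499 tested probe sets were lower at 0, 2 and 4 h, and 0 of 18427 at 16 h. Lcn2, Osmr and Socs3 where they were tested, Stat3 probe set 1459961_a_at at 4 h and Il6st probe set 1421239_at at 16 h passed the threshold through the hypoxic mean alone, so that the counts are read for single genes and not as a property of the group.

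**Figure D1:**
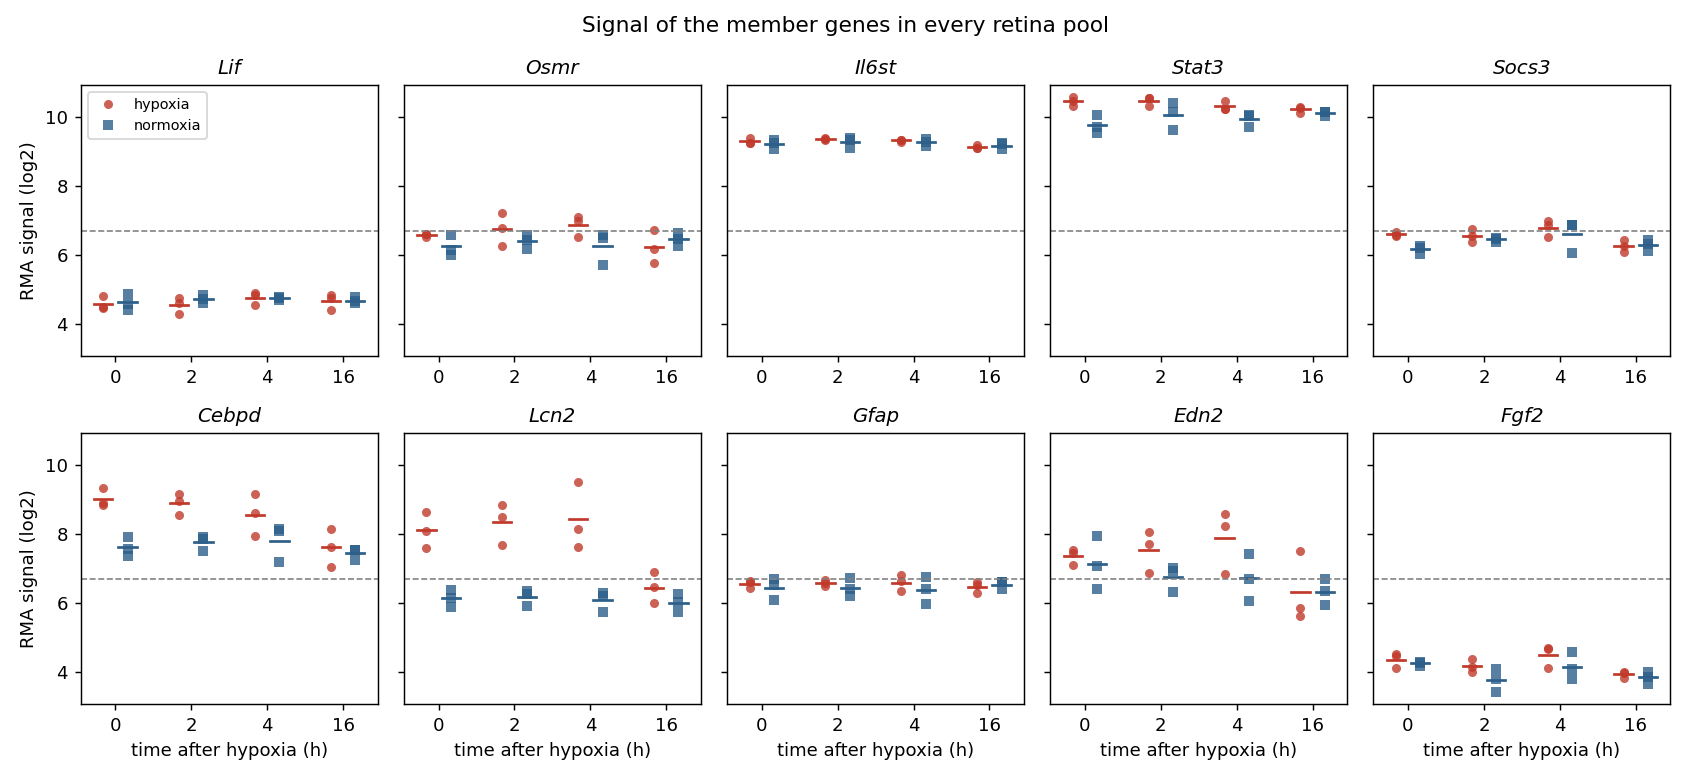
Log2 signal of the 10 genes in every pool, by the probe set with the highest mean of each gene. Circles are hypoxic and squares normoxic pools at 0, 2, 4 and 16 h after hypoxia, short lines are means of 3 pools, and the dashed line is the signal threshold of 6.69. Lcn2 circles lie above all squares at 0, 2 and 4 h, Cebpd circles at 0 and 2 h, and Lif and Fgf2 lie below the threshold in every pool.

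Lcn2 had the largest change of the 10 genes at 0, 2 and 4 h. Its log2 signal was 8.64, 8.07 and 7.60 in the hypoxic pools at 0 h, against 6.38, 6.14 and 5.88 in normoxic pools. At 2 h it was 7.68, 8.84 and 8.50 in hypoxic pools, against 6.34, 6.26 and 5.92 in normoxic pools. At 4 h it was 9.50, 8.15 and 7.61 in hypoxic pools, against 6.29, 6.21 and 5.73 in normoxic pools. The lowest hypoxic pool thus lay more than 1 log2 unit above the highest normoxic pool at each of these times, while the hypoxic pools of 4 h spread more widely than those of 0 or 2 h (SD 0.98, against 0.52 and 0.60, n = 3 each). The log2 change was 1.97 at 0 h (standard error 0.36, adjusted p = 0.00025 from limma), 2.17 at 2 h (adjusted p = 0.00044) and 2.34 at 4 h (adjusted p = 0.0013). Ranked by the size of the rise among all tested probe sets, Lcn2 was number 30 at 0 h, number 4 at 2 h and number 2 at 4 h. At 16 h its pools had 6.89, 6.45 and 6.00 after hypoxia, against 5.74, 6.25 and 6.04 in normoxia. These overlapped, both means were below the threshold, and the log2 change of 0.44 was not tested. The fold changes at 0, 2 and 4 h were 3.91, 4.50 and 5.07. They are set against normoxic signals below the threshold, where array signal changes little with RNA level. With the spread taken from the 6 arrays of 4 h alone the call at 4 h was lost (adjusted p = 0.057), and in the methods' t-test those at 2 and 4 h were lost (adjusted p = 0.084 and 0.20). Lcn2 is also a gene of neutrophil granules. All 7 neutrophil markers on the array, S100a8, S100a9 and Elane among them, had means below the threshold in every group. The part of neutrophils in the Lcn2 change was not tested.

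Cebpd was higher immediately and 2 h after hypoxia. The hypoxic pools had log2 signals of 9.32, 8.84 and 8.88 at 0 h, against 7.57, 7.90 and 7.37 in normoxic pools. At 2 h they had 8.96, 9.16 and 8.55, against 7.92, 7.86 and 7.50 in normoxia. All hypoxic pools were above all normoxic pools at both times, with log2 changes of 1.40 (standard error 0.29, adjusted p = 0.00073) and 1.13 (adjusted p = 0.010). At 4 h the hypoxic pools had 9.16, 8.59 and 7.93, against 8.15, 8.07 and 7.18 in normoxic pools. The groups overlapped through the third pool of the hypoxic group, and the log2 change of 0.76 did not pass the test (95% interval 0.16 to 1.36, adjusted p = 0.20). At 16 h they had 8.14, 7.63 and 7.05, against 7.53, 7.25 and 7.53 in normoxia, with a log2 change of 0.17 (adjusted p = 0.96). A further Cebpd probe set, 1456605_at, had group means between 5.06 and 5.20, below the threshold, and was not tested. The call at 2 h was lost without normoxia 2 h replicate 3 (log2 change 1.00, adjusted p = 0.052) and in the methods' t-test (adjusted p = 0.098).

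Stat3 had a high signal in all pools and a smaller change. By probe set 1426587_a_at, the hypoxic pools had 10.45, 10.30 and 10.56 at 0 h, against 9.70, 10.06 and 9.52 in normoxic pools. The groups did not overlap, and the log2 change was 0.68 (standard error 0.15, adjusted p = 0.0018), a 1.60-fold difference. In the methods' t-test this call was lost (adjusted p = 0.078). At 2 h the hypoxic pools had 10.53, 10.53 and 10.32, against 10.14, 10.38 and 9.61 in normoxia, which overlapped (log2 change 0.42, adjusted p = 0.068). At 4 h the hypoxic pools had 10.45, 10.21 and 10.22, all above the normoxic pools with 10.04, 10.03 and 9.69, but the change of 0.38 did not pass the test (adjusted p = 0.23). At 16 h it was 0.12 (adjusted p = 0.95).

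The probe set 1460700_at of Stat3 changed at 3 time points. Its log2 change was 0.77 at 0 h (standard error 0.13, adjusted p = 0.00011), 0.39 at 2 h (adjusted p = 0.044) and 0.58 at 4 h (adjusted p = 0.023). At 16 h all hypoxic pools were still above all normoxic pools, with a change of 0.28 that did not pass the test (adjusted p = 0.77). In the methods' t-test the calls at 0, 2 and 4 h were lost (adjusted p = 0.053, 0.19 and 0.21), and with the 6 arrays of a time point alone those at 2 and 4 h were lost (adjusted p = 0.080 and 0.11). The call at 2 h was lost without each of 9 arrays in turn, with changes between 0.28 and 0.46 over all 24 omissions. The call at 4 h was lost without hypoxia 4 h replicate 1 or 2 or normoxia 4 h replicate 1 or 3, with adjusted p up to 0.18. The 2 further Stat3 probe sets had weaker signals. 1459961_a_at had a change of 0.42 at 0 h, where it was below the threshold, and of 0.33 at 4 h (adjusted p = 0.41). 1424272_at stayed below the threshold at all times, with changes between -0.05 and 0.10.

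**Figure D2:**
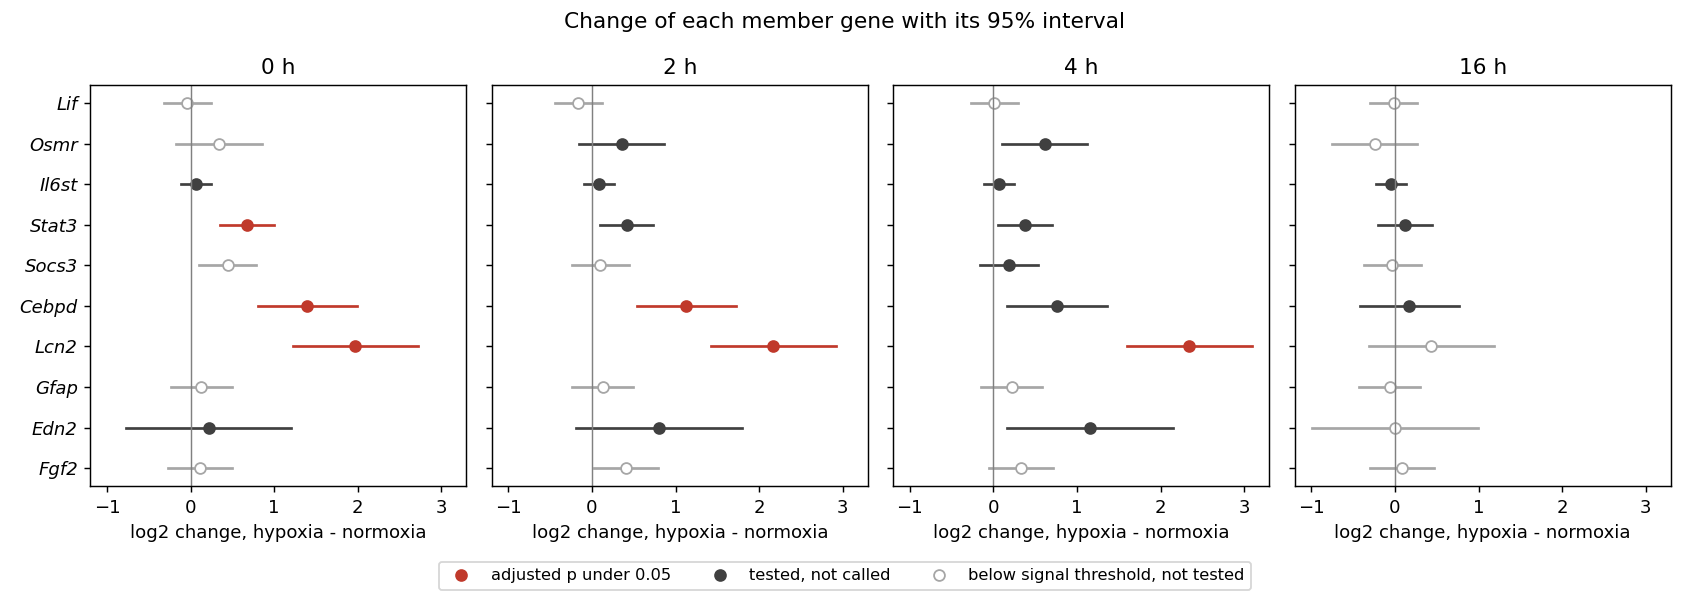
Log2 change of each gene, hypoxia minus normoxia, with its 95% confidence interval from limma, for 0, 2, 4 and 16 h. Red points passed the test (adjusted p under 0.05), dark points were tested and did not pass, and open grey points were below the signal threshold. The red points are Lcn2, Cebpd and Stat3 at 0 h, Lcn2 and Cebpd at 2 h, and Lcn2 at 4 h.

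Socs3, the inhibitor of gp130 signaling, was near the threshold in all groups. By probe set 1455899_x_at the hypoxic pools had 6.68, 6.56 and 6.58 at 0 h, against 6.20, 6.27 and 6.02 in normoxic pools. All hypoxic pools were higher, with a log2 change of 0.44 (95% interval 0.10 to 0.78), but neither mean reached the threshold and the gene was not tested. It was tested only at 4 h, where hypoxic pools had 6.98, 6.86 and 6.53 and normoxic pools 6.87, 6.87 and 6.07, with a change of 0.19 (adjusted p = 0.64). Probe set names ending in _x_at mark probes that may also match other transcripts. The other Socs3 probe sets, 1416576_at and 1456212_x_at, were below the threshold at all times, with changes between -0.03 and 0.25.

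The receptor genes Osmr and Il6st did not pass the test at any time, and the ligand gene Lif was not tested. The Lif receptor gene Lifr, described with the pathway lists below, was lower at 0 and 2 h. Lif had log2 signals between 4.30 and 4.89 in all 24 pools by probe set 1421207_at, far below the threshold. Its changes lay between -0.16 and 0.01 by this probe set and between -0.07 and 0.17 by 1450160_at. Osmr, by probe set 1418674_at, had 6.79, 7.22 and 6.26 in hypoxic pools at 2 h, against 6.57, 6.44 and 6.18 in normoxic pools. At 4 h Osmr had 6.99, 7.10 and 6.53 in hypoxic pools, against 6.58, 6.48 and 5.72 in normoxic pools. The groups overlapped at both times, with log2 changes of 0.36 (adjusted p = 0.35) and 0.61 (95% interval 0.10 to 1.12, adjusted p = 0.22). At 0 and 16 h both means were below the threshold. The other Osmr probe sets, 1418675_at and 1459217_at, were below it at all times, with changes between -0.18 and 0.47.

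Il6st was well expressed and had the narrowest intervals of the 10 genes. By probe set 1452843_at its hypoxic pools had 9.37, 9.24 and 9.25 at 0 h, against 9.07, 9.33 and 9.25 in normoxic pools. Its log2 changes were 0.07, 0.08, 0.07 and -0.04 at 0, 2, 4 and 16 h, with 95% intervals within -0.22 and 0.26 (lowest adjusted p = 0.57). The other 3 Il6st probe sets were tested at all times and none passed. At 0 h they did not have a common direction, with changes of -0.19 for 1437303_at, 0.12 for 1460295_s_at and 0.32 for 1421239_at (adjusted p = 0.20, 0.58 and 0.28).

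Gfap and Fgf2 were below the threshold in all group means. Gfap, by probe set 1426508_at, had log2 signals of 6.62, 6.43 and 6.65 in hypoxic pools at 0 h, against 6.70, 6.54 and 6.08 in normoxic pools. Its changes were 0.13, 0.13, 0.22 and -0.06 at 0, 2, 4 and 16 h, with groups that overlapped at each time. For 4 h the 95% interval was -0.15 to 0.58. The other Gfap probe sets, 1426509_s_at and 1440142_s_at, had changes between -0.02 and 0.38 and were not tested. Fgf2 had signals between 3.44 and 4.69 over all pools, in the range of the lower peak of all array values at 3.81. At 2 h its hypoxic pools had 4.17, 4.40 and 4.00, against 3.80, 4.09 and 3.44 in normoxic pools, with a change of 0.41 that was not tested. At 4 h, its hypoxic pools had 4.69, 4.68 and 4.12, against 4.58, 4.11 and 3.80 in normoxia. Lif, Gfap and Fgf2 were thus measured at each time but tested at none.

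Edn2, a peptide of the endothelin family, had the largest spread among pools. At 0 h its log2 signal was 7.52, 7.44 and 7.10 in hypoxic pools, against 7.06, 7.95 and 6.41 in normoxic pools. At 2 h it was 7.72, 8.07 and 6.86 in hypoxic pools, against 7.00, 6.92 and 6.32 in normoxic pools. At 4 h it was 8.56, 8.23 and 6.85 in hypoxic pools, against 7.41, 6.70 and 6.07 in normoxic pools. All hypoxic pools of 0 h lay within the range of the normoxic pools, and at 2 and 4 h only the third hypoxic pool did. The log2 change of 1.16 at 4 h was the seventh largest rise among 18499 probe sets tested there, yet it did not pass the test (standard error 0.48, 95% interval 0.17 to 2.15, adjusted p = 0.23). At 0 and 2 h the changes were 0.21 (adjusted p = 0.77) and 0.80 (adjusted p = 0.27). At 16 h the hypoxic pools had 7.51, 5.62 and 5.86, against 6.69, 6.35 and 5.96 in normoxia, with a change of 0.00 and both means below the threshold.

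The effect of hypoxia on Lcn2 and Cebpd was smaller at 16 h than at 0 h. For Lcn2 the effect at 16 h minus that at 0 h was -1.53 in log2 units (standard error 0.51, adjusted p = 0.037), and for Cebpd it was -1.23 (standard error 0.41, adjusted p = 0.036). These were 2 of 9 probe sets tested in this contrast, in which 20.6% of all probe sets passed. Lcn2 entered this contrast and those below through hypoxic means alone, and both its means at 16 h were below the threshold. Its differences are therefore read as a description. Both calls were lost without a signal filter, with adjusted p of 0.068 for Lcn2 and 0.067 for Cebpd. The Lcn2 call was also lost without each of 8 of the 24 arrays in turn, and the Cebpd call without each of 7 (adjusted p up to 0.11 for both). For Stat3 the same difference was -0.56 by 1426587_a_at and -0.49 by 1460700_at (adjusted p = 0.074 and 0.064). Between 2 h and 0 h, 0 of 10 probe sets differed (0 also at an unadjusted p under 0.05), against 8.21% of all. Between 4 h and 0 h it was 0 of 12 (0 at an unadjusted p under 0.05), against 16.9% of all. For Lcn2 these differences were 0.20 (95% interval -0.86 to 1.26) and 0.37 (-0.69 to 1.43). Between 16 h and 4 h, 0 of 12 passed the test by limma, with 2 at an unadjusted p under 0.05, against 0.122% of all. The Lcn2 effect at 16 h minus that at 4 h was -1.91 (unadjusted p = 0.0012, adjusted p = 0.19).

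The normoxic pools of the 4 times served as background for these effects. In an F test over the normoxic groups, 0 of 8 tested probe sets differed by limma, with 3 at an unadjusted p under 0.05, all of Il6st, and 3.54% of all probe sets differed. The normoxic means of Lcn2 ranged only from 6.01 at 16 h to 6.17 at 2 h. Those of Cebpd ranged from 7.44 at 16 h to 7.80 at 4 h, and those of Stat3 from 9.76 at 0 h to 10.09 at 16 h. Normoxic Edn2 had its lowest mean of 6.33 at 16 h and its highest of 7.14 at 0 h.

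The other genes of the pathway were counted from 8 lists of ligands, receptors, Jak and Stat factors, inhibitors, Stat3 targets, endothelin genes, Fgf genes and reactive glia genes, which include the 10 genes themselves. The probe set with the highest mean stood for a gene, and 5 listed genes were not analysed here. At 0 h 14 of 48 tested genes were higher and 9 lower, against 15.2% and 18.7% of all genes tested. Some of the higher genes, A2m, Cebpb, Edn1 and Emp1 among them, passed the threshold at 0 h through the hypoxic mean alone. The counts are therefore not read as a property of the lists. At 2 h 4 of 49 were higher and 3 lower, against 10.3% and 8.25% of all genes. Without normoxia 2 h replicate 3 the total at 2 h was 1. At 4 h 1 of 50 was higher, Lcn2, and 0 lower, against 0.934% and 0.646% of all genes. At 16 h 0 of 44 changed in either direction by limma, with 4 at an unadjusted p under 0.05, against 0% of all genes in each direction.

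Among the ligand, receptor, Jak, Stat and inhibitor genes the changes of 0 h went in both directions. Of the ligand genes, Ctf1, which encodes cardiotrophin 1, was the only one tested, and it fell (log2 change -0.31, adjusted p = 0.036). Il6, Il11, Osm and Clcf1 were below the threshold. Of 3 tested receptor genes, Cntfr, the ciliary neurotrophic factor receptor, rose by 0.60 (adjusted p = 0.012), Lifr, which pairs with gp130 to bind Lif, fell by 0.46 (adjusted p = 0.0058), and Il6st did not pass. At 2 h Cntfr was still higher (0.53, adjusted p = 0.044) and Lifr still lower (-0.39, adjusted p = 0.031). Lifr had mean signals of 9.21 in hypoxic and 9.67 in normoxic retinas at 0 h with no overlap of pools, and Cntfr of 7.92 in hypoxic and 7.31 in normoxic retinas. Of 6 tested Jak and Stat genes, Stat3 rose, and Stat2 and Stat5b fell (-0.47, adjusted p = 0.012, and -0.29, adjusted p = 0.015). Of 8 tested inhibitors, Ptpn11, a phosphatase that binds gp130, rose by 0.20 (adjusted p = 0.017), while Socs5 and Pias3, an inhibitor of Stat3 DNA binding, fell by 0.45 (adjusted p = 0.00034) and 0.44 (adjusted p = 0.0040). The median changes of the Jak and Stat list and of the inhibitor list were -0.04 and -0.09, against -0.01 over all genes tested. Of these calls at 0 h, those of Lifr, Socs5 and Pias3 remained with any single array left out. Stat5b lost its call without normoxia 0 h replicate 2 (adjusted p = 0.071), Stat2 without that array or hypoxia 0 h replicate 3 (up to 0.093), and Ptpn11 without hypoxia 0 h replicate 3 or normoxia 0 h replicate 3 (up to 0.078). Cntfr lost its call at 0 h without hypoxia 0 h replicate 1 or normoxia 0 h replicate 3 (up to 0.091) and at 2 h without each of 10 arrays (up to 0.18). Ctf1 lost its call without each of 5 arrays of 0 h (up to 0.16), and Lifr its call at 2 h without each of 4 arrays of 2 h (up to 0.13).

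Downstream, 5 of 9 tested Stat3 target genes rose at 0 h and 0 fell, against 15.2% and 18.7% of all genes tested. The list median was 0.39 against -0.01 for all genes. A2m and Cebpb passed the threshold through the hypoxic mean alone, so that the count and median are not read as a property of the list. The genes that rose were Cebpd, the protease inhibitor gene A2m (0.995, adjusted p = 0.00011), the vascular growth factor gene Vegfa (0.83, adjusted p = 2.2e-05), Cebpb, a relative of Cebpd (0.81, adjusted p = 0.00076), and Junb, an AP-1 subunit (0.39, adjusted p = 0.025). Several of these genes are known targets of other factors too, Vegfa of the hypoxia-inducible factors among them. Only Cebpd and Mcl1, which inhibits apoptosis (0.21, adjusted p = 0.044), were higher at 2 h, where the list median was 0.12 against 0.01. Vegfa had changes of -0.20 at 2 h and -0.32 at 4 h, and Cebpb of -0.15 and -0.36, none of which was called. Junb and Mcl1 were named after their values were seen, and their calls were not followed with single arrays left out. The Junb pools overlapped at 0 h.

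Of 10 tested reactive glia genes 5 rose and 1 fell at 0 h, against 15.2% and 18.7% of all genes tested. The list median was 0.75 against -0.01 for all genes. Lcn2 and Emp1 passed the threshold at 0 h through the hypoxic mean alone, so that the count and median are not read as a property of the list. Beside Lcn2, the small heat shock protein gene Hspb1 rose by 1.47 (adjusted p = 0.028), the membrane protein gene Emp1 by 1.42 (adjusted p = 0.0019), the protease inhibitor gene Serpina3n by 0.94 (adjusted p = 0.017), and Vim, the intermediate filament of Müller glia, by 0.56 (adjusted p = 0.047). S1pr3, a receptor of sphingosine phosphate, fell by 1.04 (adjusted p = 4.5e-05). Serpina3n, Vim and Cp, below, were named after their values were seen, and their calls were not followed with single arrays left out. The call of Hspb1 was lost without hypoxia 0 h replicate 1 (log2 change 0.63, adjusted p = 0.26), normoxia 0 h replicate 2 (1.46, adjusted p = 0.061) or normoxia 0 h replicate 3 (1.35, adjusted p = 0.088). Of these 5 genes Lcn2 passed the test at 2 and 4 h too. Serpina3n did not, with changes of 0.75 at 2 h (95% interval 0.15 to 1.36) and 0.77 at 4 h (0.17 to 1.38) and all hypoxic above all normoxic pools, nor did Emp1, with 0.28 at 2 h and 0.65 at 4 h (-0.03 to 1.32). Cp, which encodes ceruloplasmin, fell at 2 h (-0.35, adjusted p = 0.049). Edn1, the endothelin gene related to Edn2, rose at 0 h (0.95, adjusted p = 1.1e-06) and was below the threshold at later times, while the receptor gene Ednrb fell (-0.50, adjusted p = 0.0028). Of the Fgf list Fgf13 fell at 0 and 2 h (-0.22, adjusted p = 0.036, and -0.25, adjusted p = 0.032), and none rose. The Fgf13 calls were lost without each of 4 arrays at 0 h (adjusted p up to 0.15) and each of 6 at 2 h (up to 0.10).

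**Figure D3:**
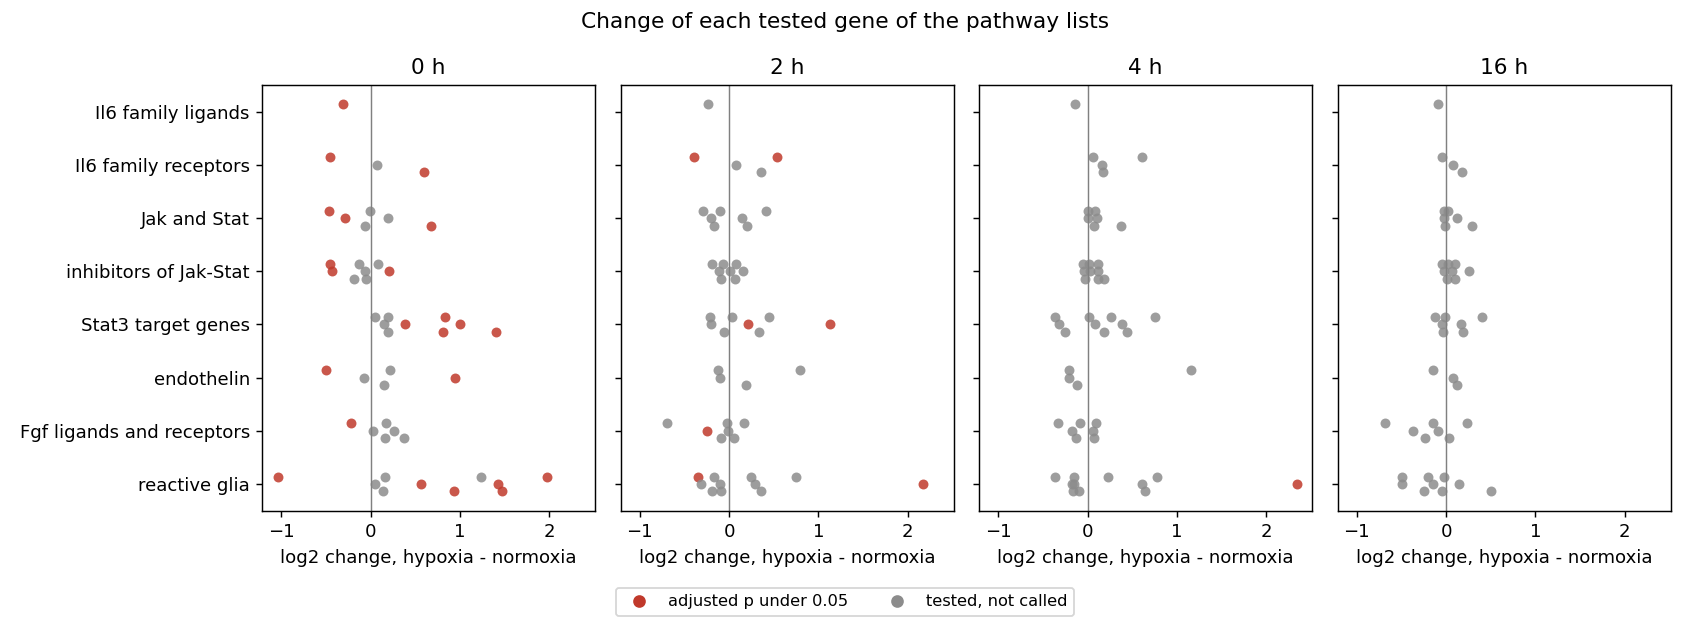
Log2 change, hypoxia minus normoxia, of each tested gene of 8 pathway lists at 0, 2, 4 and 16 h. Each point is a gene, red with an adjusted p under 0.05 (limma) and grey otherwise, with points shifted up or down only to separate them. Red points number 23 at 0 h, 7 at 2 h, 1 at 4 h, which is Lcn2, and 0 at 16 h.

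Markers of other cells were read beside these changes. All 10 Müller glia markers were above the threshold, and the labelled tissue was also marked by all 6 rod and all 6 ganglion cell markers analysed. Of these, only the rod gene Pde6a at 2 h (-0.43, adjusted p = 0.0073) and the ganglion cell gene Pou4f1 at 0 h (0.41, adjusted p = 0.0033) were called by limma. At 2 h the rod list mean was 13.10 to 13.22 in hypoxic and 13.29 to 13.35 in normoxic pools. Of the Müller glia markers, Car14, a carbonic anhydrase gene, rose at 0, 2 and 4 h (1.19, 0.97 and 0.64, highest adjusted p = 0.0038) and Abca8a, a lipid transporter gene, fell at 2 and 4 h (-0.26 and -0.53, adjusted p = 0.031 and 0.0014). The mean signal of the Müller glia list was 10.76 in hypoxic and 10.69 in normoxic retinas at 0 h. Both astrocyte markers that were tested, Pdgfra and Aldh1l1, rose at 0 h (0.63, adjusted p = 0.026, and 0.50, adjusted p = 0.017), and S100b was below the threshold. Of 9 microglia and macrophage markers 3 to 5 were tested at each time, and 0 changed by limma (0 at an unadjusted p under 0.05). At 0 h their list means ranged from 6.29 to 6.44 in hypoxic and from 6.15 to 6.94 in normoxic pools. Markers of the retinal pigment epithelium moved with the changes of 0 h, and had smaller differences at 2 and 4 h that were not called. All 5 of the 8 that were tested rose, with 3.75 for Ttr, 3.57 for Rgr and 3.48 for Rpe65 (highest adjusted p of these 2.4e-05), and the mean of the whole list was 8.57 to 8.65 in hypoxic and 6.04 to 6.37 in normoxic pools. Rgr and Rpe65 passed the threshold at 0 h through the hypoxic mean alone. At 2, 4 and 16 h 0 of the 5 were called by limma, with 3, 0 and 0 at an unadjusted p under 0.05, and the median changes were 1.08, 0.84 and -0.55, with 1.12 at 2 h and 1.01 at 4 h for Ttr. At 2 h the list mean was 7.27 to 8.36 in hypoxic and 6.41 to 7.64 in normoxic pools, and at 4 h 6.91 to 7.79 in hypoxic and 6.30 to 7.26 in normoxic pools. The lens list had a median change of 1.61 at 0 h, with 0 of 15 genes called and 12 at an unadjusted p under 0.05. Its mean ranged from 10.52 to 12.67 in hypoxic pools, and in normoxic pools it was 10.64, 7.65 and 11.46. Of 8 endothelium markers 3 were tested at each time, and only Kdr, an endothelial receptor gene, was called. Kdr fell at 0, 2 and 4 h (-0.71, -0.99 and -0.54, highest adjusted p = 0.038). The median changes of the tested endothelium markers at these times were -0.09, 0.13 and -0.004, so that the fall of Kdr is not read for the list. The calls of Pdgfra and Aldh1l1 at 0 h, of Abca8a at 2 h and of Kdr at 4 h were each lost without 1 or more single arrays (adjusted p up to 0.15, 0.079, 0.17 and 0.22). The part of these cells in the changes of the 10 genes was not tested. Without the arrays normoxia 0 h replicate 2, with the low lens signal, and normoxia 16 h replicate 3, the counts of called probe sets at 0, 2 and 4 h were again 4, 3 and 2.

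Within a group the pools varied together for most of the 10 genes. The mean of its group was subtracted from each pool, and deviations were compared over the 24 arrays, which share the normalization. Cebpd and Edn2 deviated together (Pearson r = 0.84, Spearman rho = 0.83), with r = 0.86 in the 12 hypoxic and 0.79 in the 12 normoxic pools, and 0.79 without the 2 arrays farthest from the median of Cebpd. For Osmr, r was 0.83 with Cebpd (rho = 0.81) and 0.83 with Edn2 (rho = 0.83). For Socs3 and Cebpd r was 0.74, for Gfap and Edn2 0.74, and for Cebpd and Lcn2 0.72 (rho = 0.74, 0.75 and 0.66). Il6st was less close, with r = 0.44 for Cebpd, and Lif was not close to Cebpd (r = -0.09). When placed by their correlation with the deviations of Cebpd among 10337 genes that were tested at one or more times, Edn2 was number 6, Osmr 7, Socs3 31, Lcn2 47, Fgf2 56, Gfap 93 and Stat3 271, where the median gene had r = 0.03. Gfap and Fgf2 were placed in this ranking although they were not tested themselves. Its first genes, named after their values were seen, were Clic6 (r = 0.88), Rnase4 (0.87), Scara3 (0.87), 1110008P14Rik (0.85) and B2m (0.84).

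**Figure D4:**
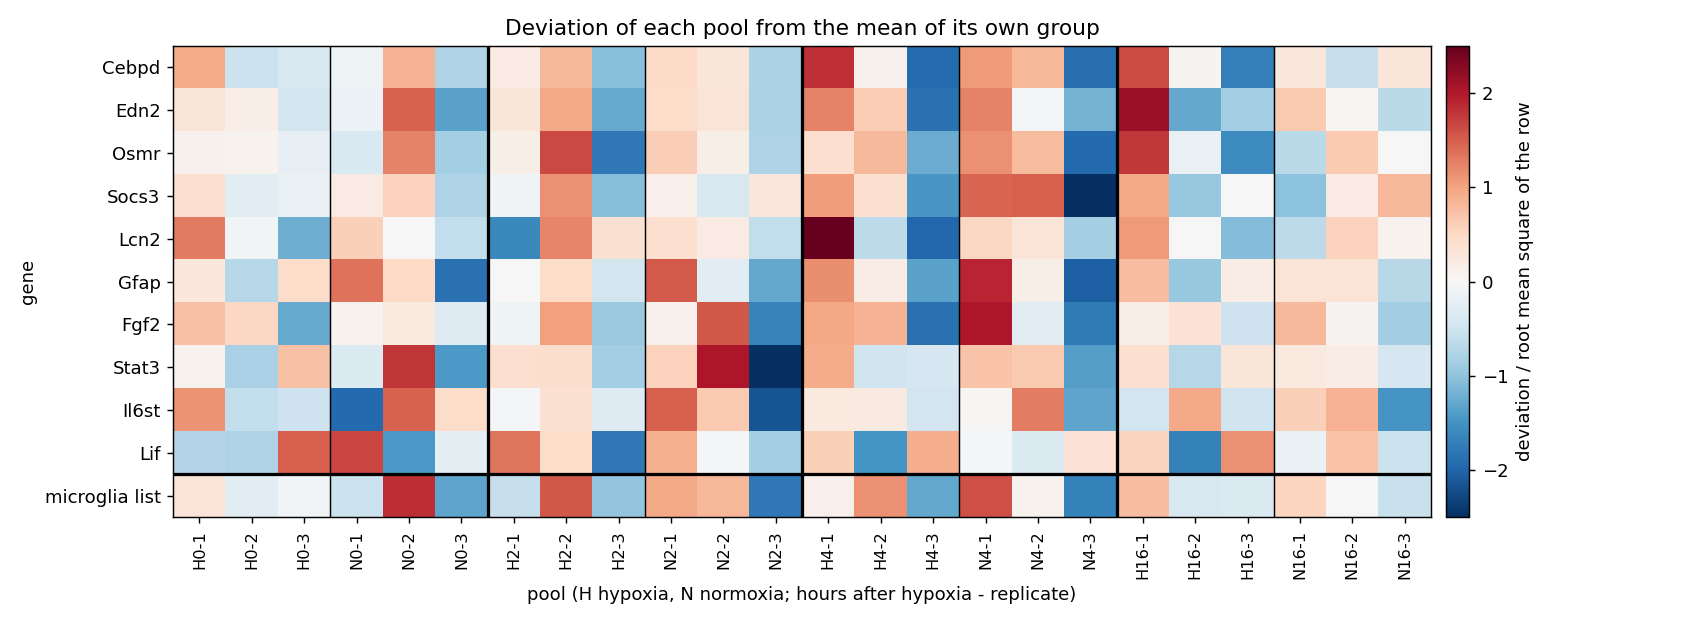
Deviation of each pool from the mean of its own group, for the 10 genes and for the mean of 9 microglia and macrophage markers, divided by the root mean square of the row. Columns are the 24 pools, with hypoxic (H) left of normoxic (N) pools at 0, 2, 4 and 16 h. Pools numbered 3 are mostly blue, and Edn2 is lowest in that pool in 7 of 8 groups, while the Lif row shows no such pattern.

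Other measures moved with these deviations. The mean of the microglia and macrophage list had r = 0.71 with Cebpd, 0.82 with Edn2, 0.81 with Osmr and 0.43 with Lcn2. The Müller glia list had r = 0.44 with Cebpd and 0.58 with Edn2. The lens list had r = -0.19 and -0.39, and the difference between the 3' and 5' control probe sets of Gapdh, a sign of RNA quality, had r = 0.20 with both genes. For Lcn2 the largest values were r = -0.58 with the rod list and 0.45 with the neutrophil list, all of whose genes were below the threshold. The retinal pigment epithelium list had r = 0.36 with Cebpd and with Osmr, 0.32 with Edn2 and 0.26 with Lcn2. The replicate number of the labels moved with them as well. The pool numbered 3 was the lowest of its group in 8 of 8 groups for Fgf2 and in 7 for Edn2 and Osmr. It was the lowest in 6 groups for Cebpd, Lcn2, Gfap and Il6st, in 5 for Stat3, in 4 for Socs3 and in 3 for Lif. Its mean deviation was -0.58 for Edn2 and -0.34 for Cebpd on the log2 scale. With the mean of each number removed too, r with Cebpd was 0.60 for Edn2, 0.73 for Osmr, 0.69 for Socs3 and 0.56 for Lcn2. For other genes little of the correlation with Cebpd was left. For Fgf2 r was 0.28 (0.70 before), for Gfap 0.28 (0.66 before) and for Stat3 0.32 (0.56 before). For Gfap and Edn2 r was 0.45 (0.74 before). The part of these measures in the deviations was not tested.

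Genes with the pattern most like that of the 3 changed genes were found over all 24 arrays, by Pearson correlation among the same 10337 genes. Group means were kept in these values, so that the calls of the genes found partly follow from the choice and are a description only. For Lcn2 they were Pros1 (r = 0.91), which encodes the anticoagulant protein S, Serpina3n (0.91) and Fxyd5 (0.90), a regulator of the sodium pump. Pros1 rose by 0.83 at 0 h, 0.84 at 2 h and 1.25 at 4 h (highest adjusted p = 0.0022), and Fxyd5 by 0.69, 0.86 and 0.73 (highest adjusted p = 0.0068). Serpina3n had changes of 0.75 and 0.77 at 2 and 4 h that did not pass (adjusted p = 0.082 and 0.20). For Cebpd they were A2m (0.92), Mt1 (0.90), a metallothionein gene, and Dnttip2 (0.90). Mt1 rose by 2.21, 2.17 and 1.66 at 0, 2 and 4 h (highest adjusted p = 3.2e-05). For Stat3 they were Bsg (0.87), which encodes basigin, Kansl1 (0.86) and the astrocyte marker Aldh1l1 (0.83), each called at 0 and 2 h. At 16 h none of these 9 genes was called, with changes between -0.10 and 0.20, and A2m and Fxyd5 were not tested there. Of all probe sets 0% were called higher at 16 h.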

How the data were processed

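The authors deposited log2 signals of 24 Affymetrix mouse expression arrays, normalized by RMA, whose version is not given in the sources used here. RMA pulls small differences at low signal together, which understates changes of weak genes. The submitters' processing notes name RMA, while the study's methods describe GCRMA for its own lists, which were not used. The deposited values were used as given, with array medians between 5.79 and 5.84. Of 45101 probe sets 64 controls were removed. The array annotation gave 1 symbol to 34945 of the rest, several to 932 and none to 9160, and those with several or none were not named. The probe set with the highest mean stood for a gene. Group means were fitted over all 24 arrays in limma 3.58.1 (R 4.3.3), with contrasts of hypoxia minus normoxia at each time and Benjamini-Hochberg adjustment over all probe sets tested, and the script was tested on simulated data. The threshold of 6.69 on the log2 scale stands between peaks of 3.81 and 7.90. The study's methods filtered in this way and used a t-test, which was run as an alternative. The array is 1 pool of 3 retinas, and p-values measure the spread between pools. Their number limits the precision, and no 2 arrays were closer than a correlation of 0.9967. Members, gene lists and tests were chosen with earlier results of these data known. The 10 genes were named by all their probe sets, up to 4 called genes by size of change in each pathway list and up to 3 in each marker list, and up to 3 most similar genes for each changed gene. Some listed genes were not analysed here. Alternatives were other filters, quantile normalization, median centring, trended and robust spread, array weights, replicate blocks, the 6 arrays of a time point alone, gene means, probe sets without the _x_at or _s_at suffix, and omission of single arrays. Promoters came from RefSeq (GRCm38.p6).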

Additional observations from a re-analysis of the deposited data

Results flagged for a closer look

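The difference in effect between 16 h and 0 h was itself tested for the 5 of the 10 genes whose main probe set reached the signal threshold, and 2 of them passed. Counted by probe set, 2 of 9 tested passed, against 20.6% of all probe sets. For Cebpd the effect of hypoxia was 0.17 at 16 h and 1.40 at 0 h on the log2 scale, a difference of -1.23 (standard error 0.41, adjusted p = 0.036, limma). For Lcn2 the effect was 0.44 at 16 h and 1.97 at 0 h, a difference of -1.53 (standard error 0.51, adjusted p = 0.037). Lcn2 entered this contrast through its hypoxic mean at 0 h alone, and both its means at 16 h were below the threshold. Its difference is therefore read as a description. The pools of both genes overlapped between hypoxia and normoxia at 16 h and did not at 0 h. Both calls were lost without a signal filter (adjusted p = 0.067 for Cebpd and 0.068 for Lcn2), and with single arrays left out they were lost in 7 of 24 cases for Cebpd and 8 of 24 for Lcn2.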

How the results depend on the processing

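No result changed direction under any alternative, and the other alternatives kept the counts within 1.5 times except as follows. In the methods' t-test 2, 0 and 0 probe sets of the 10 genes were called at 0, 2 and 4 h, against 4, 3 and 2 in the fit over all arrays, 0 genes at 2 and 4 h against 2 and 1, and 9, 0 and 0 pathway genes against 23, 7 and 1. With the 6 arrays of a time point alone 0 probe sets, 0 genes and 0 pathway genes were called at 4 h, and 3 pathway genes at 2 h. A stricter signal filter left 15 pathway genes at 0 h, since fewer genes are tested. Without a filter 2 pathway genes were called at 2 h, and 0 probe sets differed in effect between 16 h and 0 h against 2. That count was 1 with a trended and robust spread, 1 with array quality weights, and 1 without normoxia 0 h replicate 2 and normoxia 16 h replicate 3. The cause was not tested. Over all probe sets, calls at 0, 2 and 4 h were 6091, 3081 and 264, and 2803, 156 and 3 by the methods' t-test, 4477, 1325 and 62 with 6 arrays, 6337, 3455 and 727 with array quality weights, and 6463, 3584 and 485 with a trended and robust spread. With single arrays left out, the counts were 4 to 5, 1 to 4 and 1 to 2 probe sets at 0, 2 and 4 h, 1 to 3 genes at 2 h, 17 to 23 and 1 to 7 pathway genes at 0 and 2 h, 0 to 3 for the difference between 16 h and 0 h, and 0 to 1 among normoxic groups. The count of pathway genes at 2 h moved by over 1.5 times without hypoxia 2 h replicate 1 or 3, normoxia 2 h replicate 1, 2 or 3, hypoxia 16 h replicate 2 or normoxia 16 h replicate 2.

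Same-numbered hypoxic and normoxic pools of a time had correlations of -0.299 to 0.225 over 12 pairs, 6 of them above 0.1, and 13 of 24 arrays were closest to their own number, so the numbers were not taken as pairs over all times. The 3 pairs of 4 h alone had 0.211, 0.219 and 0.131. At 4 h the same-numbered hypoxic pool was the higher one in all 3 pairs for Edn2 (by 1.16, 1.53 and 0.78), Osmr (0.41, 0.61 and 0.81) and Cebpd (1.01, 0.52 and 0.75), and with the block within time points adjusted p was 0.061, 0.17 and 0.083, so that no call of the 10 genes changed. The block ended the calls of Ptpn11 at 0 h (0.058), Fgf13 at 0 and 2 h (0.071 for both), Abca8a at 2 h (0.055) and Kdr at 4 h (0.058). With the replicate block within time points the counts were again 4, 3 and 2 probe sets at 0, 2 and 4 h, and over all probe sets 5502, 2349 and 135. With the replicate number over all time points as the block, chosen after seeing the data, the difference between 16 h and 0 h passed for 4 probe sets, and adjusted p at 4 h was 0.072 for Edn2, 0.085 for Osmr and 0.058 for Cebpd. Low signal limits Lif, Gfap, Fgf2 and Socs3.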

Other observations

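Genes near the 10 genes were also read, chosen after their values were seen. Over all 24 arrays the genes closest to Edn2 were H2-D1 (r = 0.90), a class I histocompatibility gene, Crip2 (0.85) and Lrrc2 (0.84). Lrrc2 rose at 2 h (log2 change 0.48, adjusted p = 0.038) and 4 h (0.69, adjusted p = 0.023), while H2-D1 and Crip2 did not pass the test at any time, with changes between -0.11 and 0.31. Nudt6 overlaps Fgf2 on the opposite strand. Its probe set 1456945_at had changes of -0.17, 0.26, 0.47 and 0.19 at 0, 2, 4 and 16 h, and none passed the test (lowest adjusted p = 0.37). Its probe set 1424510_at was below the threshold, with changes of 0.32, 0.54, 0.36 and 0.11.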
